A study of Mus musculus with 12 samples.

Results

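The genes described here are a chemokine pair and a receptor pair: Ccl17 and Ccl22, which dendritic cells can secrete, and Ccr4 and Ccr8, which some T cells carry. They were chosen by name, and all 4 are among the 32285 genes counted in each library. Their counts were read in cells of tumours grown in mice from 5 melanoma lines, named SCC with a number. The authors' hashtag table marks 3 lines (SCC37, SCC35 and SCC32) as non-rejected and 2 (SCC40 and SCC31) as rejected. All lines were sampled on days 6, 10 and 16, the 3 non-rejected ones also on day 20. The tumours were dissociated, stained with oligonucleotide-tagged antibodies (hashtags) so that several tumours could share a library, sorted for live cells and profiled by 5' single-cell RNA sequencing. Tumours 1 and 2 of each line and day were in a library of that line, and the tumours numbered 3 were in 1 further library, called the mix library here: those of SCC35 at days 6, 10 and 20, and those of SCC40 and SCC31 at days 6 and 10. Cells of each line at day 0, with no mouse listed, were profiled as well. The labels used here give no strain, age or sex of the mice. The table gives a mouse and a cage number for each tumour. No such pair of numbers recurs within a line, and whether a pair that recurs in another line is the same mouse is not stated, so p-values measure the spread between these tumours.

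Chemokines are small secreted proteins that steer cells along a gradient through receptors on the cell surface. CCL17 and CCL22 are both ligands of CCR4, a receptor found on regulatory T cells, type 2 helper T cells and skin-homing T cells. Mature dendritic cells and some macrophages are known sources of both ligands. CCR8, whose main mouse ligand is CCL1, is known as a receptor of activated regulatory T cells in tumours and of some type 2 helper T cells. FOXP3 is the transcription factor that defines regulatory T cells.

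In the GRCm38 annotation (mm10), Ccl22 (ENSMUSG00000031779) lies on the plus strand at chr8:94745590-94751699 and Ccl17 (ENSMUSG00000031780) on the plus strand at chr8:94810453-94812036. The gap between them is 58.753 kb, and the only protein-coding gene in it is Cx3cl1, another chemokine. Ccr4 (ENSMUSG00000047898) lies on the minus strand at chr9:114490316-114504916 and Ccr8 (ENSMUSG00000042262) on the plus strand at chr9:120092114-120094906. None of the 4 overlaps another annotated gene.

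The promoter windows of the chemokine genes are shown because Ccl17 and Ccl22 were detected in the same dendritic cells, as described further on. Each runs from 250 bases before to 50 bases after the start of the gene in RefSeq (GRCm38.p6), 5' to 3' on the plus strand, at chr8:94810203-94810502 for Ccl17 and chr8:94745434-94745733 for Ccl22. Capitals mark matches to TTCNNNGAA or TTCNNNNGAA, letters that STAT factors, which act downstream of cytokine receptors, are known to bind.
Ccl17: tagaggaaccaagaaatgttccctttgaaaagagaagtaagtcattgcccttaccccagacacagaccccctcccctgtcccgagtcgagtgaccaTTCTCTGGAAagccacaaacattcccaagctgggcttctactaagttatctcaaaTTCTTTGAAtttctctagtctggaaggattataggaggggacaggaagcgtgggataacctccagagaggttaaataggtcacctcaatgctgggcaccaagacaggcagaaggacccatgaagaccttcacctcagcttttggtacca
Ccl22: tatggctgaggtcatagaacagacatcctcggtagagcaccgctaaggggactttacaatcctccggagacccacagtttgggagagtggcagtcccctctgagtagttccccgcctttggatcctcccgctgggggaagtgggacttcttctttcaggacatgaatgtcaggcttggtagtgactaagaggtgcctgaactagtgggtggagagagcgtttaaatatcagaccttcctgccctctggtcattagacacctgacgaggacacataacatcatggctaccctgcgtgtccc

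The Ccl17 window held 1 match to each of the STAT patterns, which do not overlap, and the Ccl22 window held none. Of 32851 RefSeq promoter windows of the same length, searched on both strands, 8.30% held TTCNNNGAA and 6.95% held TTCNNNNGAA. Neither chemokine window held the NF-kB consensus (8.46% of all windows) or TGANTCA, the AP-1 pattern (7.81% of all windows). A match is a stretch of letters and says nothing of binding there.

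Of 80184 cell barcodes, 55011 cells passed the filters and were assigned to 1 hashed sample: 47991 to tumours and 7020 to day 0 samples. Of 43 hashed tumours, 40 had at least 20 cells. The libraries held between 1839 and 14291 kept cells, with median counts of unique molecular identifiers (UMIs, 1 per captured transcript) between 2077 in the SCC31 library and 6240 in the SCC40 library. Between 1.73% and 3.47% of the smaller library's barcodes recurred in another library. Line and library cannot be told apart except through the mix library.

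Each tumour cell was put in 1 class by its counts. The dendritic class (883 cells) had at least 1 count of Ccr7, the receptor that leads mature dendritic cells to lymph nodes, at least 1 of the MHC class II gene H2-Ab1, and none of the CD3 genes. T cells had at least 2 counts of Cd3e, Cd3d and Cd3g together, and were split into those with a Foxp3 count (238 cells) and those without (3246 cells). Other cells with counts of Tyrobp and Lyz2 formed the other myeloid class (6865 cells), and 36759 cells fell in no class. Levels are CPM, the gene's UMIs per 1e6 UMIs of the class, summed per tumour and class where there were at least 10 cells. A Foxp3 count of 0 does not show that a T cell lacked Foxp3 at this depth.

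The dendritic class was checked against marker lists. Of its cells, 80.5% had a count of any of 8 markers of type 1 conventional dendritic cells and 57.5% of any of 7 markers of type 2 conventional dendritic cells. Other myeloid cells had these markers too, in 74.4% and 75.5% of cells, so the lists do not set the classes apart. In the dendritic class 33.2% had one of 10 macrophage markers, against 85.3% of other myeloid cells and 17.1% of cells of no class. B cell markers were found in 5.78% of them. The dendritic class is therefore named by its rule and is not a pure cell type. In Foxp3-positive T cells, regulatory T cell genes that the rule did not use were higher, as given with the gene lists.

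Ccl22 was concentrated in the dendritic class. The class made up 1.84% of tumour cells and held 72.1% (95% exact interval 70.7 to 73.5) of the 4116 Ccl22 UMIs. It also held 51.4% (49.0 to 53.8) of the 1701 Ccl17 UMIs, while other myeloid cells held 18.3% of the Ccl17 and 4.81% of the Ccl22 UMIs. Both intervals treat UMIs as independent and do not cover the spread between cells or tumours. Among tumours with at least 10 counts of the gene, the dendritic class held a median of 60.6% of the Ccl22 UMIs (0 to 95%, n = 38) and 48.2% of the Ccl17 UMIs (0 to 88.5, n = 26). The share passed 50% in 26 of the 38 tumours for Ccl22 and in 12 of the 26 for Ccl17.

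Pooled over tumours, Ccl22 reached 874 CPM (842 to 906) in the dendritic class, 13.2 in Foxp3-negative T cells, 9.28 in other myeloid cells and 3.06 in cells of no class. Ccl17 reached 257 CPM (240 to 275) in the dendritic class, 14.6 (13.0 to 16.3) in other myeloid cells, 8.11 in Foxp3-negative T cells and 1.73 in cells of no class. These intervals are exact Poisson intervals and cover counting error only. In Foxp3-positive T cells, Ccl17 was at 17.3 CPM (9.90 to 28.1) and Ccl22 at 85.5, from few cells described further on. Both chemokines were thus highest in the same class. In other myeloid cells the order of the pooled levels was not that of the medians over tumours: over 37 tumours the median of Ccl17 was 3.33 CPM, with 9 tumours at 0 and a highest value of 139, against a median of 6.85 CPM, 5 tumours at 0 and a highest value of 43.7 for Ccl22.

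The receptors had the opposite distribution. Neither Ccr4 nor Ccr8 had a single count among the 3398762 UMIs of the dendritic class, which allows up to 0.883 CPM. Ccr8 reached 127 CPM (105 to 152) in Foxp3-positive T cells, 44.2 (40.3 to 48.4) in Foxp3-negative T cells and 0.375 in other myeloid cells. Ccr4 was much scarcer, at 16.2 CPM (9.09 to 26.8) in Foxp3-positive T cells and 4.66 (3.46 to 6.15) in Foxp3-negative T cells. All tumour cells together held 667 Ccr8 UMIs and 84 Ccr4 UMIs.

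**Figure D1:**
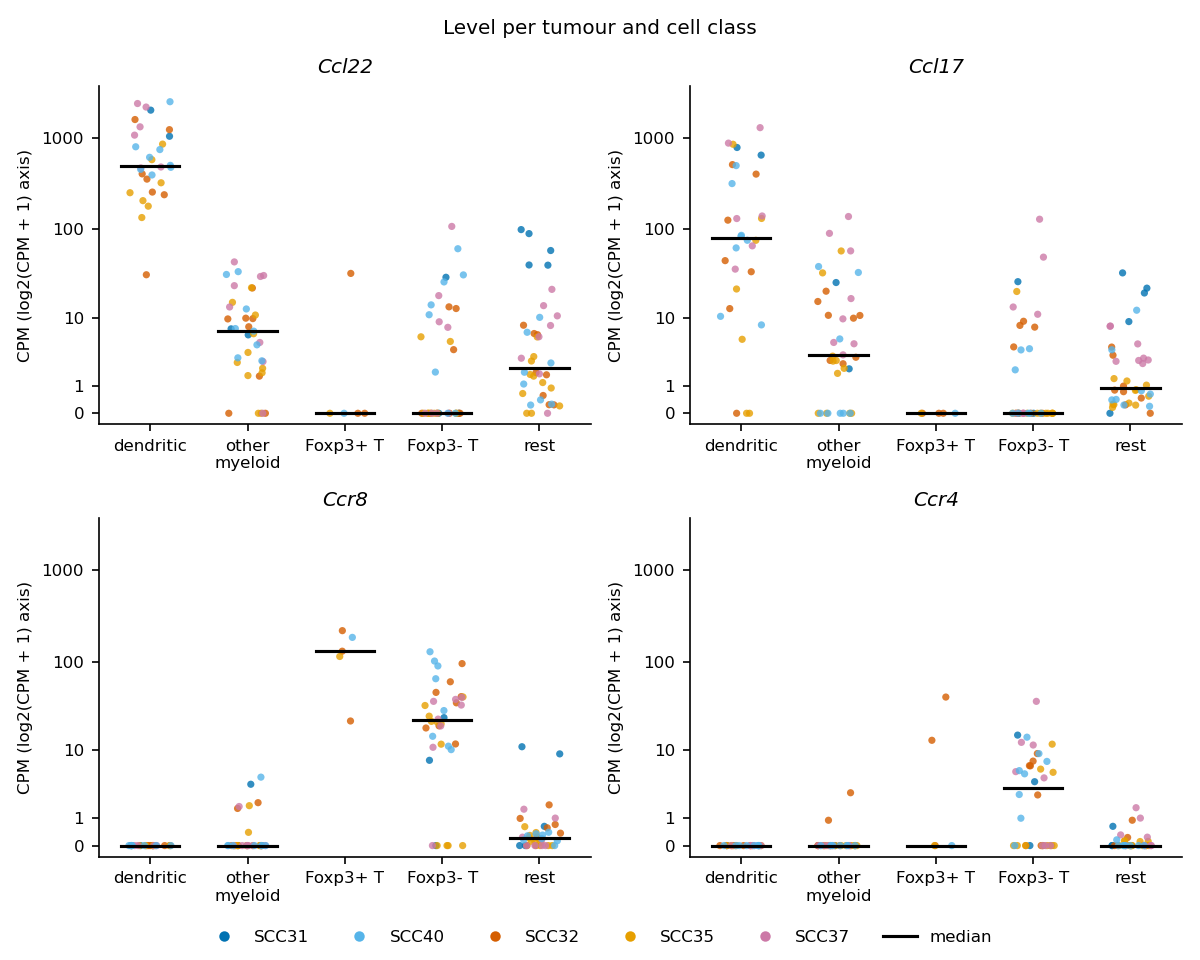
Level of Ccl17, Ccl22, Ccr4 and Ccr8 (log2 of CPM + 1) in each tumour with at least 10 cells of the class, with points coloured by line and a black bar at the median. Ccl22 lies between 31.4 and 2489 CPM in the 30 dendritic sums, and Ccr4 and Ccr8 are at 0 in all of them.

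**Figure D2:**
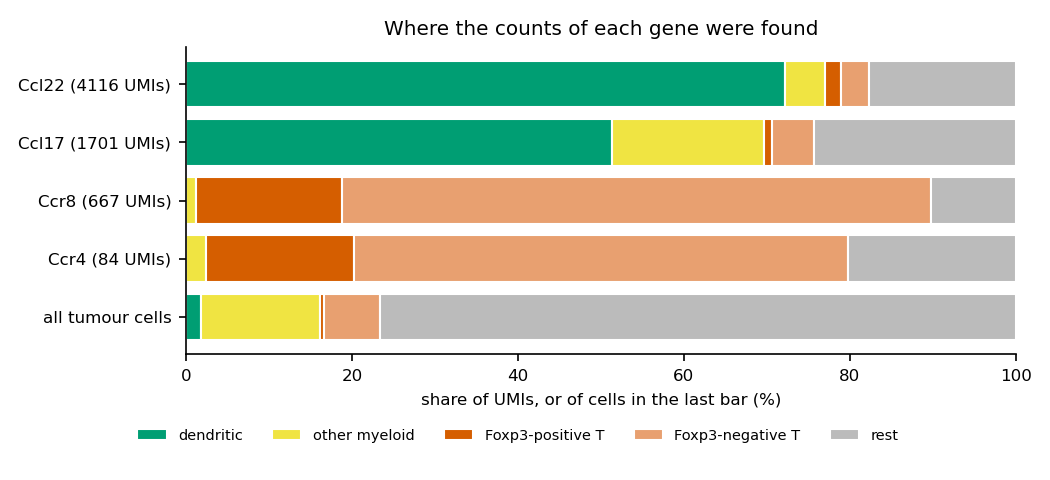
Share of each gene's UMIs that came from each class of tumour cells, with the share of all tumour cells in the lowest bar. The dendritic class holds 1.84% of cells, 72.1% of Ccl22 UMIs and 51.4% of Ccl17 UMIs, and Foxp3-negative T cells hold 71.1% of Ccr8 UMIs.

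Within single tumours the difference between dendritic and other myeloid cells was tested over 30 tumours with at least 10 cells of each. Ccl22 ranged from 31.4 to 2489 CPM in the dendritic class with a median of 493 (mean 804 ± 694, SD), and averaged 11.9 ± 11.9 CPM in the other myeloid cells of the same tumours. It was higher in the dendritic class of all 30 tumours, by 6.13 on the log2 scale (SE 0.22; edgeR, adjusted p = 5.34e-24). In this comparison 26.9% of the 2962 genes tested were higher in the dendritic class and 26.0% lower.

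Ccl17 had too few counts in too many sums to pass the filter of that fit, so it was compared by a paired permutation test on log2(CPM + 1), added after the data had been seen. Its level in the dendritic class was 245 ± 338 CPM (SD, n = 30) with a median of 79.9, against 11.4 ± 16.2 in other myeloid cells. It was higher in the dendritic class in 26 tumours, lower in 2 and at 0 in both classes in 2. The mean difference was 3.62 on the log2 scale (SD 2.62; permutation p = 1e-05, the smallest that the 100000 resamples can give, adjusted p = 2e-05). The SD of Ccl17 exceeded its mean in the dendritic class, so its level varied more between tumours, relative to its mean, than that of Ccl22.

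A minority of dendritic class cells carried most of the chemokine transcripts. Ccl22 was detected in 47.7% (44.3 to 51.0) of them and Ccl17 in 16.6% (14.2 to 19.3), with a median of 2926 UMIs per cell. In other myeloid cells, at a median of 2228 UMIs, the shares were 1.21% and 1.01%. After thinning each cell to 1000 UMIs, which left out 88 shallower dendritic class cells and 814 other myeloid cells, the shares were 35% and 11.3% in the dendritic class and 0.727% and 0.479% in other myeloid cells. Cells were ranked separately for each gene. The 89 cells with the most Ccl22, 10% of the class, held 65.7% of its Ccl22 UMIs. The 89 with the most Ccl17 held 92.2% of its Ccl17 UMIs, where only 147 cells had any Ccl17 count. Single cells reached 117 Ccl22 and 44 Ccl17 UMIs.

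Most cells with Ccl17 also had Ccl22. Both were detected in 126 dendritic class cells, Ccl22 alone in 295, Ccl17 alone in 21 and neither in 441. Thus 85.7% of the cells with Ccl17 had Ccl22, against 40.1% of the cells without Ccl17. In SCC35 the share of Ccl17 cells with Ccl22 was 61.1%, with 18 such cells of which 7 lacked Ccl22, and in the other lines it lay between 84.2% and 96.2%. These are shares of cells and not of tumours, so no test was made on them.

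Cells with either chemokine had more of the maturation genes that the class rule did not use. Fscn1, which bundles actin in mature dendritic cells, was detected in 59.2% of the 147 cells with Ccl17, in 70.8% of the 295 with Ccl22 alone and in 25.6% of the 441 with neither. The shares for Il4i1, an amino acid oxidase, were 69.4%, 69.2% and 27.0%. Socs2, a cytokine signalling inhibitor, was found in 59.2%, 66.8% and 18.8% of the same groups. Macrophage genes went the other way: Csf1r, the receptor of macrophage colony-stimulating factor, was in 7.48%, 6.44% and 23.4%, and C1qa, a complement subunit, in 6.12%, 7.80% and 17.5%. The B cell gene Cd79a was in 8.16% of the cells with neither chemokine and in none of the others, where the exact 95% intervals reach 2.48% for the cells with Ccl17 and 1.24% for those with Ccl22 alone. Median UMI counts were alike in the 3 groups, at 3129, 3044 and 2787.

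Some genes were detected more often in the pooled cells with Ccl17 than in those with Ccl22 alone. Mgl2, a lectin of type 2 conventional dendritic cells and some macrophages, was detected in 19.0% (13.0 to 26.3) of dendritic class cells with Ccl17 and in 6.44% (3.92 to 9.88) of those with Ccl22 alone, with 15.4% in those with neither. The integrin gene Itgax was found in 25.9%, 14.2% and 25.9%. Against the cells with neither chemokine, the dendritic class cells with Ccl17 did not stand apart in Mgl2 or Itgax. In the other myeloid class the comparison made was with cells with neither chemokine. There Mgl2 was in 58.0% (45.5 to 69.8) of the 69 cells with Ccl17 against 15.1% of the 6729 cells with neither, and Itgax in 63.8% against 31%. Cd209a, another type 2 dendritic cell gene, was in 13.0% against 1.11%. The other myeloid cells with Ccl17 were deeper, at a median of 4243 UMIs against 2214, and the part of depth in these shares was not tested. These marker shares and those of the paragraph before pool cells of all tumours, so their intervals leave out the spread between tumours. Ccl17 was detected in 29.0% of dendritic class cells of SCC31 and in 9.52% of those of SCC35. The part of line and library in the shares was not tested.

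**Figure D3:**
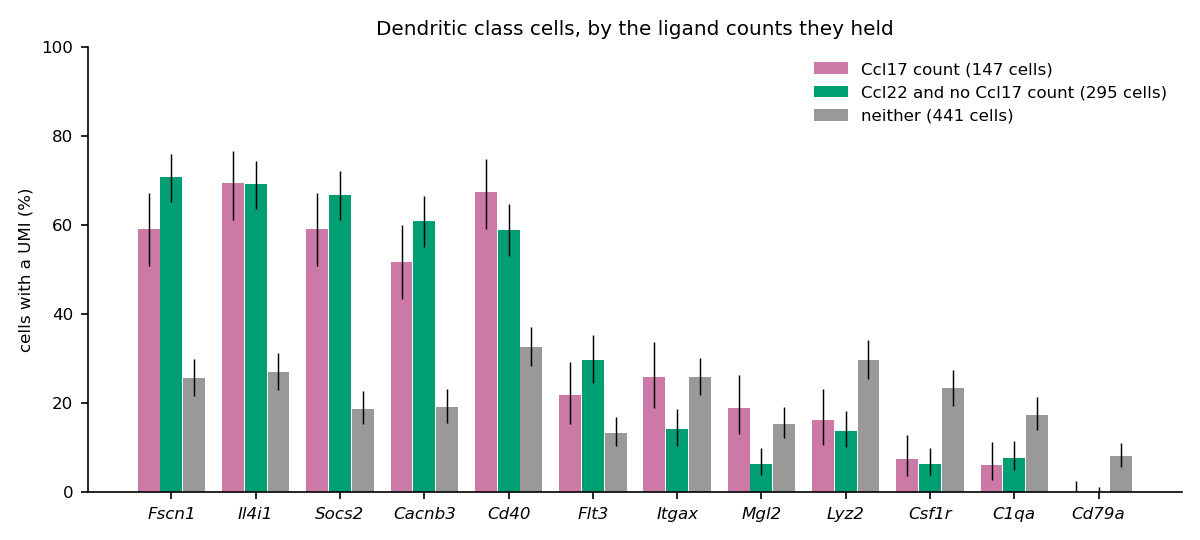
Percent of dendritic class cells with a UMI of each of 12 genes, in the 147 cells with Ccl17, the 295 with Ccl22 and no Ccl17 and the 441 with neither; error bars are exact 95% binomial intervals. Fscn1 is in 59.2%, 70.8% and 25.6% of these cells and Csf1r in 7.48%, 6.44% and 23.4%.

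The cells outside the dendritic class that held chemokine counts carried some of its genes. Of the 219 cells of no class with Ccl22, 44.3% had Ccr7 and 36.5% had Il4i1, against 0.832% and 0.442% of the cells of no class with neither chemokine. Among T cells, Ccl22 came from few cells. In Foxp3-positive T cells the pooled 85.5 CPM rested on 79 UMIs in 8 cells, of which 4 cells held 71. Of these 8 cells 75.0% had H2-Ab1, against 20.4% of the other Foxp3-positive T cells, and their median UMI count was 6340 against 2591. In Foxp3-negative T cells 9 cells held 116 of the 141 Ccl22 UMIs, and 69.2% of the 26 cells with Ccl22 had H2-Ab1 against 19.4% of the rest. The part of mixed droplets in the T cell counts of the chemokines was not tested.

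The gene lists place the chemokines among their relatives. Of 22 dendritic maturation genes, 19 could be tested between dendritic and other myeloid cells and all 19 were higher in the dendritic class (edgeR), with a median of 1.87 on the log2 scale against 0.01 over all genes tested. Il4i1 rose most, by 6.30 (SE 0.18), from 5.79 ± 6.34 to 422 ± 230 CPM (SD, n = 30). Fscn1 (5.67), the immune inhibitory ligand gene Cd200 (5.62) and the calcium channel subunit gene Cacnb3 (5.45) followed, next to the 6.13 of Ccl22. Of 32 other chemokines, 15 were tested: 2 were higher and 11 lower in the dendritic class, with a median of -1.75. The higher ones were Ccl5 (1.58), a T cell attractant, and Cxcl16 (0.45), the ligand of CXCR6. The monocyte chemokines Ccl8 (-3.53), Ccl12 (-2.96) and Ccl7 (-2.55) were among the lower ones, as was the platelet factor gene Pf4 (-3.56). All 5 of the 20 other chemokine receptors that could be tested were lower, from Ccr1 (-2.30) and Ccr2 (-2.11) to Ccrl2 (-0.51). Of all 2962 genes tested in this comparison, 26.9% were higher and 26.0% lower in the dendritic class. The lists were chosen with earlier results of these data known.

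Ccr8 was compared between T cells with and without Foxp3 in the 5 tumours that had at least 10 cells of each. In Foxp3-positive T cells it was 219 and 130 CPM in tumours 1 and 2 of SCC32 at day 10, 21.8 in tumour 1 of SCC32 at day 20, 114 in tumour 1 of SCC35 at day 16 and 185 in tumour 2 of SCC40 at day 16. The Foxp3-negative T cells of the same tumours had 95.3, 60.0, 41.0, 32.6 and 64.9 CPM. Ccr8 was thus higher in the Foxp3-positive cells of 4 of the 5 tumours and lower in the SCC32 tumour of day 20, where the value rests on 1 count in 12 cells.

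The means were 134 ± 75.6 and 58.8 ± 24.4 CPM (SD, n = 5), and the fitted difference of 1.09 on the log2 scale (SE 0.30) did not pass the threshold after adjustment over 2437 genes (edgeR, adjusted p = 0.0579). In that comparison 2.67% of genes were higher and 2.63% lower in Foxp3-positive cells. A paired exact permutation test gave p = 0.125, where the smallest possible p is 0.0625. Without the SCC32 tumour of day 20 the difference was 1.25 (edgeR, adjusted p = 0.0303), and with called doublets kept, which gave 8 tumours, it was 1.22 (edgeR, adjusted p = 0.0044). The call therefore depended on 1 tumour of 12 Foxp3-positive cells and on the treatment of doublets.

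Ccr4 was at 40.6 and 13.0 CPM in the Foxp3-positive T cells of tumours 1 and 2 of SCC32 at day 10 and at 0 in the other 3 tumours. The means were 10.7 ± 17.6 in Foxp3-positive and 3.27 ± 3.48 CPM in Foxp3-negative T cells (SD, n = 5). The mean difference of 0.28 on the log2(CPM + 1) scale was within the spread between tumours (paired exact permutation p = 0.75). These 5 tumours held 6 of the 15 Ccr4 counts of Foxp3-positive T cells.

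By cell, Ccr8 was detected in 29.8% (24.1 to 36.1) of Foxp3-positive and 10.5% (9.47 to 11.6) of Foxp3-negative T cells, at median depths of 2642 and 2095 UMIs, and in 0.102% of other myeloid cells. After thinning to 1000 UMIs the T cell shares were 11.1% and 5.66%. The Foxp3-negative class included cells with Cd8 genes, which held hardly any Ccr8, as described next. Ccr4 was detected in 5.04% and 1.36% of the T cells. Because Foxp3-negative cells were the more numerous, they held 80.2% of the 591 Ccr8 UMIs of T cells. Of the 56 T cells with Ccr4, 25% had Ccr8, and of the 412 with Ccr8, 3.40% had Ccr4.

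Among Foxp3-negative T cells, Ccr8 was found in cells with Cd4 and hardly in cells with Cd8 genes. The 1107 cells with Cd4 and no Cd8a or Cd8b1 count had 86.6 CPM (77.4 to 96.6), and 21.1% of them had a Ccr8 count. The 945 cells with Cd8a or Cd8b1 and no Cd4 count had 2.48 CPM (1.07 to 4.88), and 0.741% had a count. Ccr4 was at 7.53 and 0.930 CPM in the same groups. Median depths were 2242 and 2269 UMIs. The 95 Foxp3-positive T cells with Cd4 and no Cd8a or Cd8b1 count had 134 CPM of Ccr8 (101 to 175). A Ccr8 count was found in 32.6% of them (23.4 to 43.0), at a median of 2704 UMIs. Among cells with Cd4 the gap between Foxp3-positive and Foxp3-negative cells was thus smaller than among all T cells. These intervals leave out the spread between tumours. T cells with Ccr8 carried activation genes more often than those without: Tnfrsf4, which encodes the costimulatory receptor OX40, was in 83.7% against 41.0%, the checkpoint gene Ctla4 in 62.4% against 35.9%, and Gata3, the regulator of type 2 helper cells, in 27.9% against 12.7%. Foxp3 itself was in 17.2% of T cells with Ccr8 and in 5.44% of those without. The cells with Ccr8 had a median of 2740 UMIs and those without 2061, and the part of depth was not tested.

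Of 24 regulatory T cell genes, 17 were tested between Foxp3-positive and Foxp3-negative T cells, and 13 were higher and 0 lower in the Foxp3-positive cells (edgeR), with a median of 1.72 against -0.02 over all genes tested. Klrg1 (4.02), Lrrc32 (3.63), which presents latent TGF-beta, the interleukin 2 receptor gene Il2ra (2.54) and Ikzf2 (2.42) had larger log2 differences than the 1.09 of Ccr8. Of 32 other chemokines, 11 were tested and 4 were lower in Foxp3-positive cells, with none higher. Among these was Ccl1, the ligand gene of CCR8: it stood at 412 ± 226 CPM in Foxp3-negative and 15.6 ± 28.2 CPM in Foxp3-positive T cells (SD, n = 5), a log2 difference of -4.33 (SE 0.48; edgeR, adjusted p = 0.000252). The others were Xcl1 (-6.28), Cxcl1 (-2.70) and Ccl5 (-2.41). Among the 5 other receptors tested, Ccr2 was higher (1.57) and Cxcr6 lower (-2.36). Of the type 2 helper list, 1 of 6 genes could be tested and it did not pass. Of all 2437 genes tested in this comparison, 2.67% were higher and 2.63% lower in Foxp3-positive cells.

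Over time, Ccl22 fell in the dendritic class when the change from day 6 to the last day was averaged over the 5 lines. The last day with enough cells was day 10 in SCC31, whose day 16 tumours had too few. It was day 16 in SCC40 and day 20 in the other lines. Its level was 1167 ± 797 CPM at day 6 (n = 11), 795 ± 672 at day 10 (n = 10), 477 ± 211 at day 16 (n = 5) and 235 ± 183 at day 20 (n = 4), all as mean ± SD over tumours. The day 16 tumours were of SCC32, SCC37 and SCC40 only, and those of day 20 of SCC32, SCC35 and SCC37 only. In SCC32 the tumours had 1591 and 1234 CPM at day 6, 406 at day 10, 356 and 240 at day 16, and 31.4 and 257 at day 20, so that day 6 did not overlap any later day. SCC37 had 1075 and 2177 CPM at day 6, 2378 and 1324 at day 10, 483 at day 16 and 472 at day 20.

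SCC35 lay lower throughout, with 253, 324 and 581 CPM at day 6, 207, 858 and 135 at day 10 and 180 at day 20, the last from the mix library. SCC40 had 616, 479 and 2489 CPM at day 6, 748, 395 and 455 at day 10, and 803 and 503 at day 16, and its days overlapped. SCC31 had 1 tumour with enough cells on each day, both from the mix library, at 2014 CPM at day 6 and 1045 at day 10.

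The mean change of Ccl22 over lines was -1.49 on the log2 scale (SE 0.40; edgeR, adjusted p = 0.0233), where 4.23% of 3524 genes fell and 2.47% rose. The change was negative in all 5 lines, from -0.80 in SCC40 to -2.96 in SCC32, and no line passed alone: the adjusted p of SCC32 was 0.142 (edgeR). Within single lines 0.114% of genes fell in SCC31, 0.0851% in SCC32, 0.0284% in SCC35 and none in SCC37 or SCC40. A difference of the change between lines was not found (edgeR, adjusted p = 0.927).

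The composition of the dendritic class also differed between days, which did not hold the same lines. The summed level of its 10 macrophage markers was 349 ± 284 CPM at day 6 (52.1 to 877), 1361 ± 1116 at day 10, 3209 ± 4012 at day 16 and 5620 ± 3669 at day 20 (1360 to 9596), and Ccr7, which defines the class, was 2734 ± 980, 1781 ± 444, 1475 ± 751 and 1084 ± 393 CPM (SD over the same tumours). None of the 10 macrophage markers was at 0 in the pooled class. By line, the macrophage sum went from 491 and 877 CPM at day 6 to 9596 and 7549 at day 20 in SCC32. It went from 202, 187 and 238 to 3974 in SCC35 and from 417 and 851 to 1360 in SCC37. In SCC40 it went from 92.8, 52.1 and 170 to 483 and 399 at day 16. In SCC31 it was 262 and then 230 at day 10. In SCC40 Ccr7 overlapped between day 6 (1923 to 3770 CPM) and day 16 (2277 and 2303). The part of line in the day means was not tested. When cells with any count of C1qa, C1qb, C1qc or Lyz2 were left out, the mean change of Ccl22 was -0.74 (edgeR, adjusted p = 0.274, 23 tumours), and when at least 2 counts of both Ccr7 and H2-Ab1 were required it was -0.30 (edgeR, adjusted p = 0.736). It was -0.88 without the mix library (edgeR, adjusted p = 0.195, 4 lines), -0.87 with at least 20 cells per tumour (edgeR, adjusted p = 0.16) and -1.36 with called doublets kept (edgeR, adjusted p = 0.119). Of these settings, the 2 stricter choices of cells and the minimum of 20 cells also left fewer days, so that SCC32 ended at day 16 and SCC35 and SCC37 at day 10, and without the mix library SCC35 ended at day 10.

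Ccl17 in the dendritic class showed no common direction over time across the lines, and no line's change passed the test. It was 513 and 404 CPM in SCC32 at day 6, 45.1 at day 10, 33.9 and 126 at day 16, and 0 and 12.8 at day 20. In SCC37 it was 132 and 1298 CPM at day 6, 880 and 140 at day 10, 65.8 at day 16 and 36.3 at day 20. In SCC35 it was 75.8, 21.6 and 132 CPM at day 6, 0, 0 and 5.40 at day 10, and 855 in the mix library tumour of day 20. The SCC40 tumours had 75.9, 62.5 and 500 CPM at day 6, 86.1, 10.4 and 83.9 at day 10, and 8.19 and 318 at day 16, and the SCC31 tumours 651 at day 6 and 788 at day 10.

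The mean change of Ccl17 over lines was -1.20 on the log2 scale (SE 0.72; edgeR, adjusted p = 0.353). By line it was -5.44 in SCC32, -4.19 in SCC37, -0.24 in SCC40, 0.33 in SCC31 and 3.50 in SCC35, and no line passed. The last day was 1 tumour in each of SCC37, SCC31 and SCC35, and SCC31 also had 1 tumour at day 6. The last-day values of SCC32 and SCC37 given above were under the level of 3 counts, which was 38.5 to 94.1 CPM in those sums. The difference of the change between lines did not pass after adjustment (edgeR, adjusted p = 0.57), and 0.0284% of genes passed that test. Without the SCC35 tumour of day 20 the mean change was -2.74 (edgeR, adjusted p = 0.0303), and with a hashtag ratio of 4 it was -2.55 (edgeR, adjusted p = 0.0396). In both settings the last day of SCC35 with enough cells was day 10, so the change of that line was taken from day 6 to day 10.

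**Figure D4:**
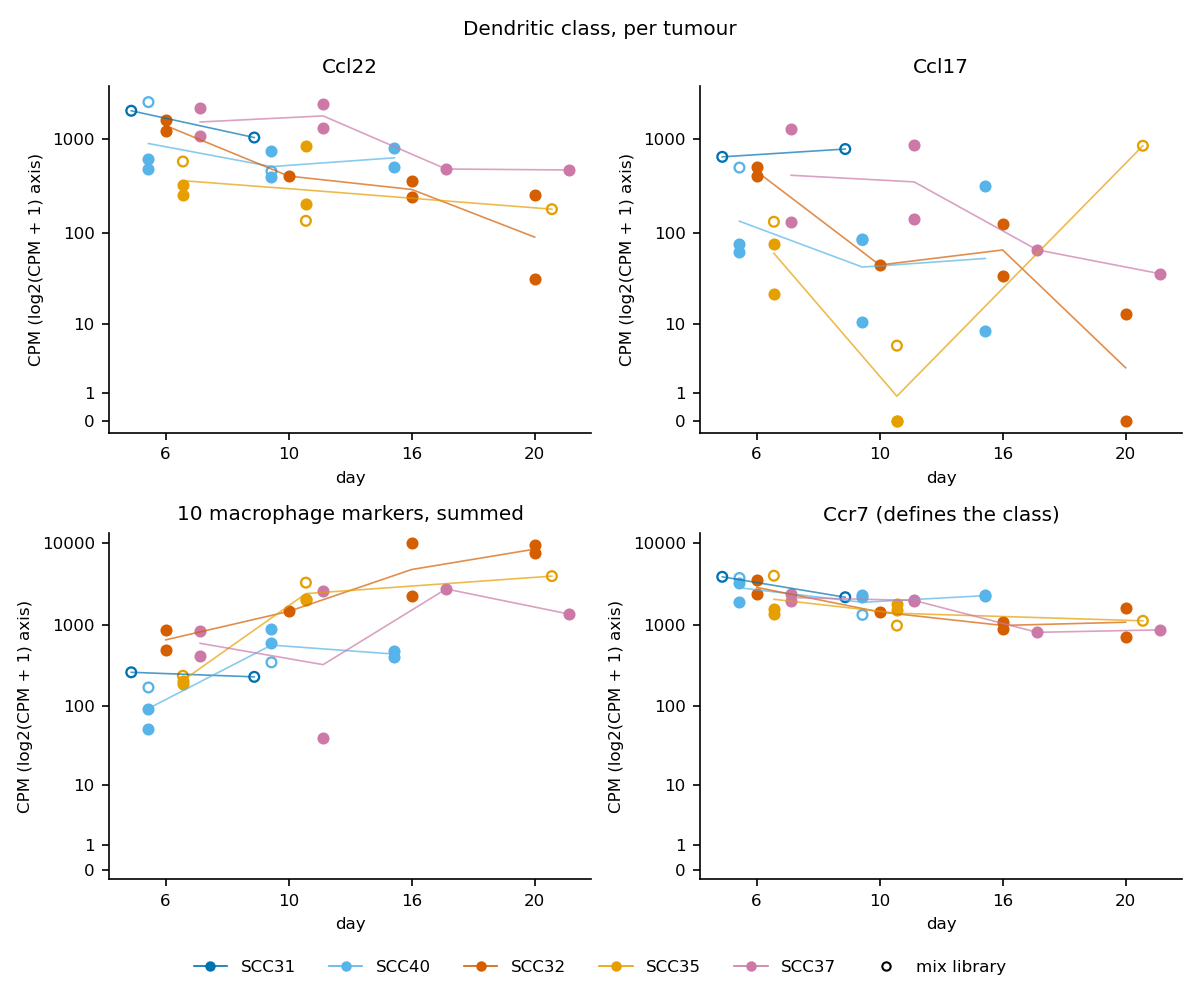
Ccl22, Ccl17, the sum of 10 macrophage markers and Ccr7 in the dendritic class of each tumour (log2 of CPM + 1) by day, with lines joining the means of each line and open symbols for the mix library. Days are spaced evenly. Mean Ccl22 goes from 1167 CPM at day 6 to 235 at day 20, while the macrophage sum goes from 349 to 5620 CPM. Day 20 holds tumours of SCC32, SCC35 and SCC37 only.

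The 5 lines differed in both chemokines over days 6 and 10. The test of the line means gave adjusted p = 0.00736 for Ccl17 and 0.0354 for Ccl22 (edgeR), and 2.87% of the 3524 genes passed it. Over these days the dendritic class held 1739 ± 636 CPM of Ccl22 in SCC37 (SD, n = 4), 1530 ± 685 in SCC31 (n = 2), 1077 ± 608 in SCC32 (n = 3), 864 ± 807 in SCC40 (n = 6) and 393 ± 275 in SCC35 (n = 6). Ccl17 was 720 ± 97.2 CPM in SCC31, 612 ± 576 in SCC37, 320 ± 245 in SCC32, 136 ± 180 in SCC40 and 39.1 ± 53.8 in SCC35, in the same tumours. Neighbours in these orders overlapped. The 2 SCC31 tumours did not overlap those of SCC35 in either chemokine, nor those of SCC32 or SCC40 in Ccl17, and the SCC37 tumours did not overlap those of SCC35 in Ccl22. Both SCC31 tumours were from the mix library, which held no tumour of SCC32 or SCC37. Against those lines, line and library cannot be told apart.

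The line difference of Ccl22 did not pass with at least 20 cells per tumour (edgeR, adjusted p = 0.102), nor with the tumour number as a block (0.0834), nor without any 1 of 6 tumours. These were tumours 1 and 2 of SCC35 at day 6 (edgeR, adjusted p = 0.0704 and 0.0788), tumour 1 of SCC35 at day 10 (0.079), tumour 2 of SCC37 at day 6 (0.0928), tumour 1 of SCC37 at day 10 (0.0814) and tumour 2 of SCC40 at day 10 (0.0607). The line difference of Ccl17 passed without each tumour in turn and did not pass with at least 20 cells per tumour (edgeR, adjusted p = 0.105). In cells without C1q or Lyz2 counts both differences passed (edgeR, adjusted p = 0.00241 for Ccl17 and 0.00426 for Ccl22).

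In other myeloid cells Ccl17 rose from day 6 to the last day, at levels far under those of the dendritic class. It was 7.80 ± 10.9 CPM at day 6 (n = 11), 5.47 ± 8.04 at day 10 (n = 11), 26.6 ± 46.9 at day 16 (n = 8) and 35.9 ± 34.2 at day 20 (n = 7). In SCC37 it was 4.92 and 16.8 CPM at day 6, 139 and 9.69 at day 16, and 90.5 and 57.9 at day 20, so that day 6 and day 20 did not overlap. In SCC35 it was 0, 2.09 and 3.2 CPM at day 6 and 32.9, 0 and 57.8 at day 20. SCC40 had 0, 0 and 33.3 CPM at day 6 and 0 and 38.8 at day 16.

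The mean change over lines was 1.97 on the log2 scale (SE 0.68; edgeR, adjusted p = 0.0454), where 5.76% of 8384 genes rose. By line it was 3.87 in SCC35, 3.51 in SCC31, 2.85 in SCC37, 0.73 in SCC40 and -1.10 in SCC32. The call lay close to the threshold: it was lost with DESeq2 (2.04, adjusted p = 0.117), with a stricter cell filter (2.0, edgeR, adjusted p = 0.0692) and without any 1 of 13 tumours. Without tumour 2 of SCC40 at day 16 the change was 0.56 with an SE of 9.60. The only SCC40 tumour left on that day had no Ccl17 count, so this value is not a usable estimate.

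The other losses of that call were smaller in value, and each of the following is an adjusted p from edgeR. Without tumour 3 of SCC31 at day 6 or day 10 it was 0.102 or 0.103. Without tumour 2 at day 6 or tumour 1 at day 20 of SCC32 it was 0.0605 or 0.338. Without tumour 1, 2 or 3 of SCC35 at day 6 it was 0.0559, 0.0615 or 0.0532, and without tumour 3 at day 20 it was 0.0748. Without tumour 1 at day 6, tumour 2 at day 10 or tumour 1 at day 20 of SCC37 it was 0.0799, 0.0516 or 0.0612. Without tumour 2 of SCC40 at day 6 it was 0.0501. The log2 changes without these 12 tumours lay between 1.61 and 2.08.

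Markers of other cell types moved with the day in this class. The summed level of the 10 macrophage markers was 2901 ± 1072 CPM at day 6 and 16041 ± 5011 at day 20, and that of 6 monocyte markers was 6110 ± 1732 and 1387 ± 540 CPM (SD, n = 11 and 7). The 7 markers of type 2 conventional dendritic cells summed to 665 ± 174 and 1055 ± 333 CPM. Day 20 held tumours of SCC32, SCC35 and SCC37 only. None of these markers was at 0 in the pooled class, and their part in the Ccl17 change was not tested.

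Ccl22 in other myeloid cells had a mean change of -0.14 (edgeR, adjusted p = 0.936) and was 13.1 ± 13.8 CPM at day 6 (n = 11) and 9.89 ± 10.9 at day 20 (n = 7), a range in which the days overlapped. Over days 6 and 10 the lines differed in 17.3% of genes in this class, and neither Ccl17 nor Ccl22 passed that test (edgeR, adjusted p = 0.403 and 0.159).

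Other genes of the lists also moved with the day in these classes. In the dendritic class 0 of the 20 maturation genes tested rose and 7 fell (edgeR): Cd80, a costimulatory ligand (-1.81), Il4i1 (-1.51), Cacnb3 (-1.47), Socs2 (-1.33), the checkpoint ligands Cd274 (-1.31) and Pdcd1lg2 (-1.30), and the NF-kB subunit Relb (-1.11). The median of the list was -0.86 against -0.08 over all genes tested. Over all genes tested in this class, 4.23% fell and 2.47% rose. Of 19 other chemokines tested, Cxcl10, an interferon-induced T cell attractant, fell (-1.31) and Cxcl2, a neutrophil attractant, rose (1.74). For a list of 19 genes, 1 fall and 1 rise lie near those shares. The macrophage markers and Ccr7 moved over the same tumours, as given above, and their part in these changes was not tested. In other myeloid cells 24 other chemokines were tested: 3 rose, Pf4 (2.13), Cxcl16 (0.94) and Cxcl2 (0.53), and 5 fell, among them Ccl24 (-3.48) and Ccl2 (-0.99), where 8.80% of all genes tested fell and 5.76% rose.

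Ccr8 in Foxp3-negative T cells was 16 ± 9.80 CPM at day 6 (n = 11), 44.9 ± 42.2 at day 10 (n = 12), 37.4 ± 29.3 at day 16 (n = 8) and 23.8 ± 19.2 at day 20 (n = 7). In SCC40 the tumours had 11.1, 14.5 and 10.1 CPM at day 6, 129, 102 and 28.6 at day 10, and 89.8 and 64.9 at day 16, with no overlap between day 6 and the later days. SCC32 had 19.2 and 18.1 CPM at day 6, 95.3 and 60.0 at day 10, 35 and 45.8 at day 16, and 41.0 and 11.8 at day 20. In SCC35 the values lay between 0 and 40.7 CPM and in SCC37 between 0 and 40.2, and SCC31 had 7.50 CPM at day 6 and 0 and 23.8 at day 10. Helper and cytotoxic T cell markers shifted over the same tumours: the summed level of 2 CD4 T cell markers was 170 ± 66.8, 340 ± 154, 220 ± 119 and 102 ± 71.9 CPM on the 4 days, and that of 2 CD8 T cell markers 151 ± 106, 222 ± 124, 498 ± 177 and 754 ± 364 CPM (SD). Ccr8 was thus highest on the day of the highest CD4 level, and the part of this shift in Ccr8 was not tested.

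The mean change of Ccr8 over lines was 1.19 on the log2 scale (SE 0.49; edgeR, adjusted p = 0.248), where 1.12% of 7040 genes rose. In SCC40 it was 2.79 (SE 0.72; edgeR, adjusted p = 0.0652), and 0.128% of genes rose in that line. Without the mix library the mean was -0.23 over 4 lines (edgeR, adjusted p = 0.823), while the SCC40 change was 2.69 and passed (edgeR, adjusted p = 0.0224). In that setting the SCC35 tumours left at day 20, tumours 1 and 2, had no Ccr8 count. The mean of -0.23 is therefore not a usable estimate. The SCC40 change also passed without any 1 of 7 tumours, of which tumours 2 and 3 at day 10 and tumours 1, 2 and 3 at day 20 were of SCC35 and tumours 1 and 3 at day 10 of SCC40 (edgeR, adjusted p = 0.0223 to 0.0483). In all T cells together, an alternative chosen after the data had been seen, the mean change was 1.37 (SE 0.38; edgeR, adjusted p = 0.0494), where 1.27% of 7161 genes rose, and the SCC40 change was 2.62 (edgeR, adjusted p = 0.0392, with 0.223% of genes higher). Neither a difference of the change between lines (edgeR, adjusted p = 0.855, with 0% of genes passing) nor a difference between lines at days 6 and 10 (edgeR, adjusted p = 0.441, with 3.92% of genes passing) was found for Ccr8.

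**Figure D5:**
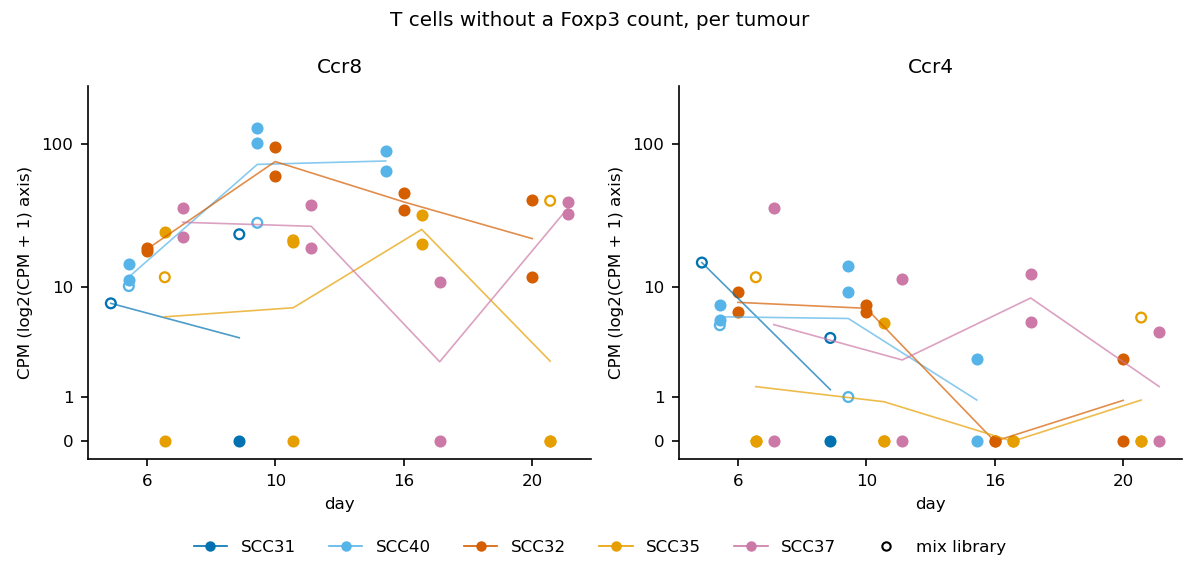
Ccr8 and Ccr4 in the Foxp3-negative T cells of each tumour (log2 of CPM + 1) by day, with lines joining the means of each line and open symbols for the mix library; days are spaced evenly. In SCC40, Ccr8 lies between 10.1 and 14.5 CPM at day 6 and between 28.6 and 129 CPM afterwards.

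Ccr4 in Foxp3-negative T cells was 8.77 ± 10.3 CPM at day 6 (n = 11), 4.89 ± 4.93 at day 10 (n = 12), 2.54 ± 4.41 at day 16 (n = 8) and 1.84 ± 2.48 at day 20 (n = 7). It was at 0 in 16 of 38 tumours and did not pass the count filter, and its days overlapped. Of the type 2 helper list, 4 genes were tested in these cells over time and Il13, a type 2 cytokine, fell (-3.12, SE 0.70; edgeR, adjusted p = 0.0117), where 0.455% of genes fell. Of the 21 regulatory T cell genes tested, 0 passed by edgeR and 6 had an unadjusted p under 0.05, as did 1003 of all 7040 genes tested.

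Foxp3-positive T cells were too few for a fit over time. Pooled by line and day, Ccr8 was 10.6 CPM (0.269 to 59.3) in SCC32 at day 6, 185 (130 to 255) at day 10, 109 (35.3 to 253) at day 16 and 77.7 (28.5 to 169) at day 20. In SCC40 it was 117 CPM (14.2 to 424) at day 6, 241 (96.9 to 496) at day 10 and 199 (125 to 301) at day 16. In SCC35 it was 71.7 CPM (8.69 to 259) at day 6, 195 (109 to 321) at day 10, 55.7 (11.5 to 163) at day 16 and 278 (90.1 to 648) at day 20. SCC37 had no Ccr8 count at days 6 and 10, which allows up to 187 and 153 CPM by the exact interval, and 58.6 CPM (7.09 to 212) at day 16 and 130 (35.4 to 333) at day 20. SCC31 had no count at day 6, with an upper limit of 192 CPM, and 132 CPM (48.6 to 288) at day 10. Except for SCC32 between days 6 and 10, these intervals overlapped, and they cover counting error only.

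The share of dendritic class cells among tumour cells fell from day 6 to the last day. Its mean was lower on the last day in all 5 lines, from 9.17% to 4.95% in SCC31, 3.02% to 1.27% in SCC32, 2.42% to 0.427% in SCC35, 4.14% to 0.830% in SCC37 and 3.32% to 2.36% in SCC40. The last day was day 10 in SCC31, day 16 in SCC40 and day 20 in the other lines. The mean change was -2.45 percentage points (permutation of days within lines, p = 0.00012, adjusted p = 0.00024), and -2.03 after thinning to 1000 UMIs (permutation p = 0.0004). The share of T cells with a Foxp3 count changed by -1.98 points (permutation p = 0.412). Pooled over days it was 11.4% (8.73 to 14.6) in SCC35, 9.33% (7.66 to 11.2) in SCC32, 6.86% (4.68 to 9.66) in SCC37, 3.66% (2.62 to 4.97) in SCC40 and 3.11% (1.67 to 5.26) in SCC31. These intervals treat cells as independent and leave out the spread between tumours, which ran from 5.17% to 27.6% in SCC35 at day 10. Of the 418 T cells of SCC31, 331 came from its mix library tumour of day 10. The pools of SCC31 and SCC40 hold no day 20. The order of the lines was not tested and was not the same on each day: at day 6 the share was 8.33% in the single SCC31 tumour and averaged 7.41% in SCC32, and at day 16 it averaged 7.38% in SCC40 and 6.71% in SCC32.

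The outcome belongs to the line, so rejected and non-rejected lines were compared as 2 against 3 values, a design whose smallest exact p is 0.2. Over days 6 and 10 the mean log2 level of Ccl22 in the dendritic class was 9.96 ± 0.77 in the rejected (SD, n = 2) and 9.53 ± 1.17 in the non-rejected lines (n = 3; two-sided exact permutation p = 1). The difference was 1.48 for Ccl17 in the dendritic class (exact p = 0.8) and -0.52 for Ccr8 in Foxp3-negative T cells (exact p = 0.6). In the 8 comparisons made, the exact p lay between 0.4 and 1, and every adjusted p was 1.

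No relation between chemokine level and the share of T cells with Foxp3 was found. Over 29 tumours, Pearson's r between Ccl22 in the dendritic class (log2) and that share was -0.10 and Spearman's rho -0.05 (permutation p = 0.61 and 0.785). For Ccl17 in the dendritic class r was -0.30 and rho -0.02 (permutation p = 0.111 and 0.902). With the chemokines measured over all cells of the tumour, r was -0.12 for Ccl22 and -0.14 for Ccl17 (permutation p = 0.529 and 0.461), and rho was -0.01 and 0.06 (permutation p = 0.941 and 0.765). The 4 relations had adjusted p of at least 0.444. After subtracting line means, rho was 0.30 for Ccl22 in the dendritic class and -0.05 for Ccl17 (permutation, adjusted p = 0.239 and 0.815). Without the 2 tumours farthest from the median, r was -0.08 for Ccl22 and -0.11 for Ccl17.

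The genes whose level followed each member most closely over tumours were found by Spearman's rho on log2(CPM + 1), as a description over sums that share libraries and depth. Within the dendritic class (30 tumours) Ccl22 was closest to Cd200 (0.80), Glipr2 (0.77), Samsn1 (0.73), Crip1 (0.72) and Prex1 (0.72). Ccl17 was closest to Rtf1 (0.70), AA467197 (0.65), Marcks (0.63), Ccl22 (0.63) and Ppp3cb (0.60). Over all 150 sums of tumours and classes Ccl22 was closest to Tbc1d8 (0.78), Mmp25 (0.76), Flt3 (0.75), Il4i1 (0.73) and H2-Eb2 (0.72), and Ccl17 had Ccl22 as its closest gene (0.64). Ccr8 was closest to Ndfip1 (0.73), Cd27 (0.72), Cxcr3 (0.72), Cd3g (0.71) and Ubash3a (0.71). Ccr4 was closest to Tnfsf11 (0.56), the type 2 genes Il13 (0.55) and Gata3 (0.53), Ndfip1 (0.51) and Dnaja1 (0.51). Ccr4 was itself under the minimum of 10 CPM asked of the genes compared. The 150 sums span classes that were set by counts, Cd3g among them. Ranks over them therefore also reflect the classes and are no sign of a relation within T cells.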

How the data were processed

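The deposited matrices hold raw UMI counts per gene, hashtag and cell barcode. The authors made these counts with Cell Ranger 6.0.0 on mm10, per the submitters' processing notes, with no normalisation, so all scaling below was computed here. Counts of deposited hashtags, with the authors' hashtag table, gave each cell's tumour: the leading hashtag needed at least 10 counts and 2 times the next. Cells needed at least 300 genes and at most 15% mitochondrial counts. Scrublet (scanpy 1.11.5, expected rate 0.08) marked doublets, which were removed; in the SCC31 library, where its own threshold marked 4 cells, the median threshold of the libraries was used and marked 79.

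Counts were summed per tumour and class. Sums of at least 10 cells entered edgeR 4.0.16 (R 4.3.3): the quasi-likelihood test after TMM scaling and filterByExpr at its defaults, with Benjamini-Hochberg adjustment over all genes and a threshold of 0.05. Classes of the same tumours were compared with the tumour as a block. Changes over time used a mean per line and day. Ccl17 and Ccr4 did not pass the filter of the class fits and were compared by paired sign-flip permutation on log2(CPM + 1). Other tests were permutations over tumours or lines (scipy 1.17.1). DESeq2 1.42.0 and other filters, scalings and class rules were alternatives. Scripts were tested on simulated data.

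Depth ranged from 5691826 to 112724631 gene UMIs per library. The members and gene lists were chosen with earlier results of these data known. Genes named from a list passed the test, the largest changes first; the nearest genes to a member were the 5 with the highest rho. Genes named in shares of cells, and the alternatives on C1q, Lyz2 and B cell counts, were chosen after the data had been seen.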

Additional observations from a re-analysis of the deposited data

Results flagged for a closer look

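Of the 5 tumours with at least 10 Foxp3-positive T cells, 1 had 32.5 CPM of Ccl22, from 4 counts, and was marked as lying apart from the others, which were at 0. A count of 0 in those 4 tumours allows up to 37 to 114 CPM, so this depth shows no difference between them. It was 1 of 3 groups of tumours checked in this way. With the other 4 tumours at 0, the rule marks any value above 0. Day 0 cells, with no mouse listed, held 13 Ccl17 UMIs and 7 Ccl22 UMIs among 57847981 UMIs of 7020 cells, with 2 of Ccr8 and none of Ccr4, where a count of 0 allows up to 0.0519 CPM.

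Tumour cells of no class held 729 Ccl22, 413 Ccl17, 68 Ccr8 and 17 Ccr4 UMIs. Their Ccl22 was 65.7 ± 27.7 CPM in the 5 SCC31 tumours (SD) and averaged between 1.61 and 8.05 CPM in the other lines. Of the 219 cells with Ccl22, 44.3% had Ccr7, and 33.3% had H2-Ab1.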

How the results depend on the processing

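Alternatives changed 1 choice at a time. The higher Ccl22 and Ccl17 of the dendritic class kept their calls under all 18 and 14 alternatives, at 5.86 to 6.90 and 2.98 to 4.63 on the log2 scale. The mean change of Ccl22 in the dendritic class lost its call with at least 20 cells (-0.87), doublets kept (-1.36), no mix library (-0.88), at least 2 counts of Ccr7 and H2-Ab1 (-0.30) and no cells with C1q or Lyz2 counts (-0.74), and kept it without each tumour in turn (-1.98 to -1.27). Its line difference lost the call with at least 20 cells (adjusted p = 0.102 by edgeR) and the replicate block (0.0834), with 0.0101 to 0.0928 without each tumour. That of Ccl17 lost it with at least 20 cells (0.105).

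Without the low-count filter, calls appeared for the mean change of Ccl17 in the dendritic class (-1.32) and, as edgeR adjusted p, for its difference between lines (1.13e-15), for Ccl17 of other myeloid cells (4.01e-05 for the change between lines and 0.00565 between lines) and for Ccl22 between lines there (4.00e-04). The Ccl17 change in the dendritic class also passed with a hashtag ratio of 4 (-2.55), and was -2.74 to -0.73 without each tumour. That of other myeloid cells lost its call with DESeq2 (2.04) and a strict cell filter (2.0), was 0.56 to 3.24 without each tumour, and 3.11 with the replicate block (edgeR, adjusted p = 0.0008), where the line difference passed too (0.00954). The lowest of these values, 0.56, had an SE of 9.60 and is not a usable estimate. Ccl22 there reversed without the mix library (0.51), and was -1.04 to 0.28 without each tumour.

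The mean change of Ccr8 in Foxp3-negative T cells was -0.23 without the mix library, and the change passed in all T cells (1.37). The value of -0.23 is not a usable estimate, since the SCC35 tumours then left at day 20 had no Ccr8 count. Ccr8 by Foxp3 passed with doublets kept (1.22) and was 0.94 to 1.25 without 4 of the 5 tumours in turn, while without tumour 1 of SCC32 at day 10 it did not pass the low-count filter. Ccr4 by Foxp3 was -0.21 with at least 2 Foxp3 counts and -0.23 to 0.81 without each tumour. The outcome difference of Ccl17 in other myeloid cells was 0.14 with a pseudocount of 10. Spearman's rho turned positive without the mix library for Ccl17 in dendritic cells (0.0119), Ccl22 in dendritic cells (0.0328) and Ccl22 in all cells (0.12), with line means subtracted for Ccl22 in dendritic (0.30) and all cells (0.30), and without the 2 farthest tumours for Ccl17 (0.0446).

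Counts of genes called moved by over 1.5 times in places: dendritic against other myeloid 3594 without the filter against 1568; by Foxp3 0 to 343 against 129; over time in the dendritic class 16 to 271 against 236, and between its lines 12 to 339 against 101; over time in Foxp3-negative T cells 15 to 202 against 111, and between their lines 110 to 899 against 276; between lines in other myeloid cells 1194 to 2206 against 1449. Whether tumour numbers pair the samples was not decided. Same-number tumours deviated together, at a correlation over 0.1, in 5 of 18 dendritic, 15 of 46 other myeloid and 8 of 46 Foxp3-negative T cell pairs. The median correlations were 0.03, 0.03 and -0.05. With 2 tumours in a line and day, deviations from their mean mirror each other, so pairs of unlike number give no separate comparison. The block moved the dendritic time calls from 236 to 223. The outcome test could not be made without the mix library, since SCC31 then has no sum of at least 10 cells at day 6 in any class tested. Depth limits Ccr4 most, with 84 UMIs in tumour cells.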
